A study of Mus musculus with 8 samples.

Results

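Mitochondrial ribosomal protein genes were taken from the deposited expression table as every gene whose symbol begins with Mrpl or Mrps and a digit. The rule used names alone and gave 77 of the 24341 genes in the table, of which 48 carry the Mrpl name of the large ribosomal subunit and 29 the Mrps name of the small subunit. RNA of mouse heart ventricle was sequenced in 8 libraries from lysates of male mice, aged 12 weeks. Both groups were homozygous for floxed Med13 and Med13l (Med13/13L fl/fl) and ate tamoxifen chow, and 4 weeks had gone by since tamoxifen. The cre_positive group (n = 4) carried a Cre recombinase described as specific to cardiomyocytes, and the cre_negative group (n = 4) carried the floxed alleles without it. The Cre line and its promoter are not named in the labels, no group with Cre and without floxed alleles was analysed here, and the lysate holds every cell type of the ventricle. The labels do not say whether each library came from a separate mouse, so p-values measure the spread between these libraries, which may be technical in part.

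Mitochondria hold their own ribosome, the mitoribosome, which translates the few proteins encoded by mitochondrial DNA, all of them parts of the respiratory chain and ATP synthase. Its ribosomal RNAs come from mitochondrial DNA, while all its proteins are encoded in the nucleus, made in the cytosol and imported. Some of these proteins have counterparts in the bacterial ribosome and others are found only in mitochondrial ribosomes. Cardiomyocytes are dense in mitochondria, and inherited defects of several of these proteins, among them MRPL3, MRPL44 and MRPS22, are known to cause cardiomyopathy in people.

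Levels are in FPKM, the fragments of a gene scaled to its transcript length in kilobases and to 1e+06 mapped fragments, and changes are differences of mean log2(FPKM + 1), cre_positive minus cre_negative, fitted with limma over the 11688 genes that averaged 1 FPKM or more. A gene is called at a Benjamini-Hochberg adjusted p under 0.05 over those genes. The estimated depth ran from 4.50 to 23.6 per library, in units of 1e+06 fragments, so that a transcript of 1 kb at 20 FPKM rested on 90.0 to 472 fragments, a counting error of 10.5% to 4.60%. The ribosomal RNA precursor Rn45s parted the libraries into 5 with 396 to 1053 FPKM (cre_negative 1, 3 and 4, cre_positive 1 and 2) and 3 deeper ones with 10.3 to 16.0 FPKM (cre_negative 2, cre_positive 3 and 4). The names of cre_negative libraries 1 and 2 share a stem, and whether they came from one mouse is not stated. The targeted genes were lower in every cre_positive library: Med13 had a mean of 12.0 ± 2.23 FPKM (SD, n = 4) in cre_negative and 8.13 ± 0.554 in cre_positive libraries (log2 change -0.50, adjusted p = 0.00612), and Med13l had 4.92 ± 0.814 and 2.52 ± 0.113 (log2 change -0.74, adjusted p = 0.000318). The Med13 call was lost after scaling to a fixed sum, with a log2 change of -0.22 (adjusted p = 0.167), and in the high-Rn45s libraries alone (-0.51, adjusted p = 0.0529).

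The genes of the mitochondrial ribosome were lower as a group in the cre_positive ventricle. All 77 passed the filter on low values, 57 fell, 1 rose (Mrpl20) and 19 were not called. Over all genes tested, 19.4% were called lower and 19.7% higher. In 52 members every cre_positive library lay below every cre_negative library, and in 2 (Mrpl20 and Mrps10) every one lay above, where 18.7% of all genes tested had groups apart in the lower direction and 19.3% in the higher. The median log2 change of the members was -0.52, against -0.0070 for all genes tested. The decrease was moderate and shared widely: 42 members had a log2 change of -0.5 or less, 4 had one of -1 or less, and 70 were below 0. In the bulk lysate, fewer cells of a type and less RNA per cell cannot be told apart.

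Part of this count depended on how the libraries were scaled. The FPKM of all genes summed to 545102 to 612162 in cre_negative and 460601 to 478667 in cre_positive libraries. Every library was then scaled to the same sum, taken without small RNAs, Rn45s, genes named as cytosolic ribosomal proteins and genes with missing values. The median over all genes went from -0.0070 to 0.25. After that scaling 34 members were called lower and 8 higher (Mrpl20, Mrpl24, Mrpl52, Mrpl54, Mrpl57, Mrps6, Mrps10 and Mrps34), beside 8.91% and 45.4% of all genes. The median of the members minus that of all genes was -0.51 as deposited and -0.47 after scaling. As deposited, 70 members were below the median of all genes, and 68 were below it after scaling.

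**Figure D1:**
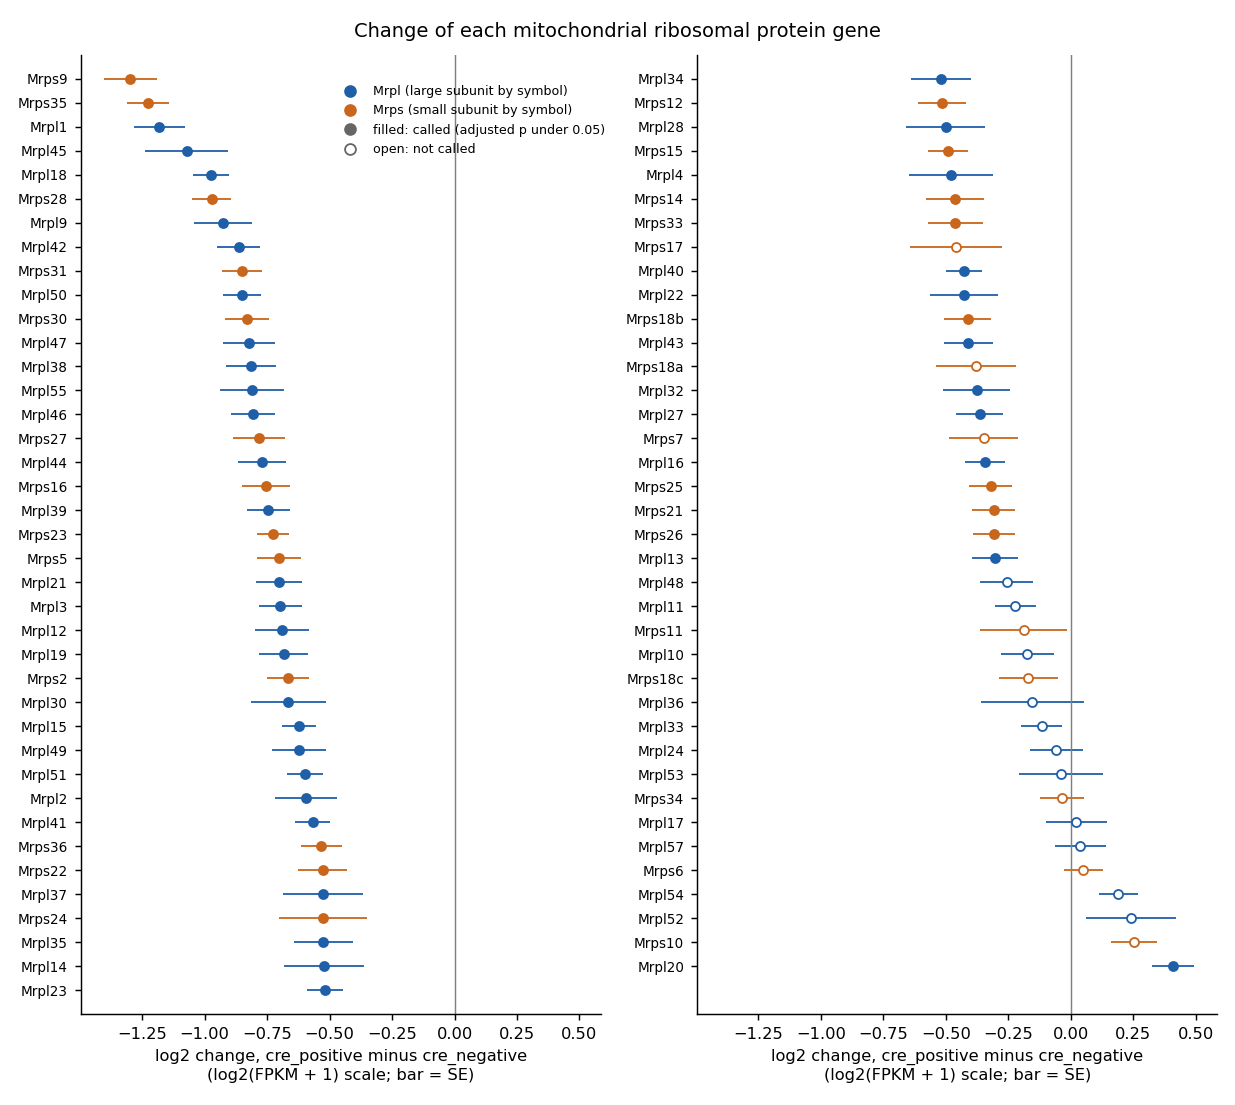
Log2 change (cre_positive minus cre_negative, on the log2(FPKM + 1) scale) of the 77 mitochondrial ribosomal protein genes, ordered by change, with the standard error as a bar, Mrpl genes in blue and Mrps genes in orange, filled where called. The points run from -1.30 for Mrps9 to 0.41 for Mrpl20, and 57 filled points lie below 0 against 1 above.

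The largest falls came from both subunits. Mrps9 is a small subunit protein with a bacterial counterpart that sits in the head of the subunit. Control libraries 1 to 4 held 70.6, 63.3, 66.6 and 64.2 FPKM of it, and cre_positive libraries 1 to 4 held 21.7, 31.6, 26.4 and 26.6 FPKM. The controls were close to each other, and no cre_positive library came near them. Mean Mrps9 was 66.2 ± 3.26 FPKM (SD, n = 4) without Cre and 26.5 ± 4.04 FPKM with it, and its log2 level fell by 1.30 (SE 0.105, adjusted p = 7.79e-06).

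Mrps35 is a small subunit protein of mitochondrial ribosomes alone. In the controls it read 82.6, 97.6, 86.6 and 94.8 FPKM, and in the cre_positive libraries 36.8, 41.9, 35.2 and 38.3 FPKM. The groups were again far apart, and Mrps35 fell by 1.23 on the log2 scale (SE 0.0836, adjusted p = 3.21e-06). Mrpl1 belongs to the mobile stalk of the large subunit that handles spent tRNA on its way out. Its level was lower than that of the others, with 21.2, 19.3, 19.3 and 18.3 FPKM in the controls and 6.54, 9.15, 8.29 and 8.38 FPKM with Cre. It fell by 1.18 (SE 0.1003, adjusted p = 1.08e-05), and the lowest value was that of cre_positive library 1.

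Mrpl45, which lies near the exit of the large subunit's peptide tunnel and faces the inner membrane, varied more. Its controls were 35.7, 43.5, 27.3 and 35.8 FPKM and its cre_positive values 12.0, 15.6, 18.3 and 19.9 FPKM. The groups did not overlap, although the third control was well below the other controls, and Mrpl45 fell by 1.07 (SE 0.166, adjusted p = 0.000562). Mrpl18, a bacterial-type protein of the central protuberance of the large subunit, fell by 0.97 (SE 0.0722, adjusted p = 4.98e-06), from 154 ± 8.90 to 77.9 ± 3.72 FPKM (SD, n = 4). Mrps28, a small subunit protein, fell by 0.97 as well (SE 0.0773, adjusted p = 7.20e-06), from 86.5 ± 6.70 to 43.5 ± 2.00 FPKM. These 6 members were called lower in each of the 8 fits that left out 1 library. That held for 49 of the 57 members called lower, these 6 among them.

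Further members with falls beyond 0.8 on the log2 scale were Mrpl9 (-0.93), Mrpl42 (-0.86), Mrps31 (-0.85), Mrpl50 (-0.85), Mrps30 (-0.83), Mrpl47 (-0.82), Mrpl38 (-0.81), Mrpl55 (-0.81) and Mrpl46 (-0.81). Each of these 9 had groups that did not overlap, and their adjusted p ran from 1.61e-05 for Mrpl50 to 0.000621 for Mrpl55. The 3 genes named above for their part in cardiomyopathy, picked by hand, had log2 changes of -0.70 for Mrpl3, -0.77 for Mrpl44 and -0.53 for Mrps22, and each was called. Mrpl3 went from 61.1, 67.8, 52.7 and 58.3 FPKM in the controls to 34.4, 36.6, 36.8 and 38.2 FPKM (adjusted p = 0.000124). The cre_positive values of Mrpl3 were all well under the lowest control.

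**Figure D2:**
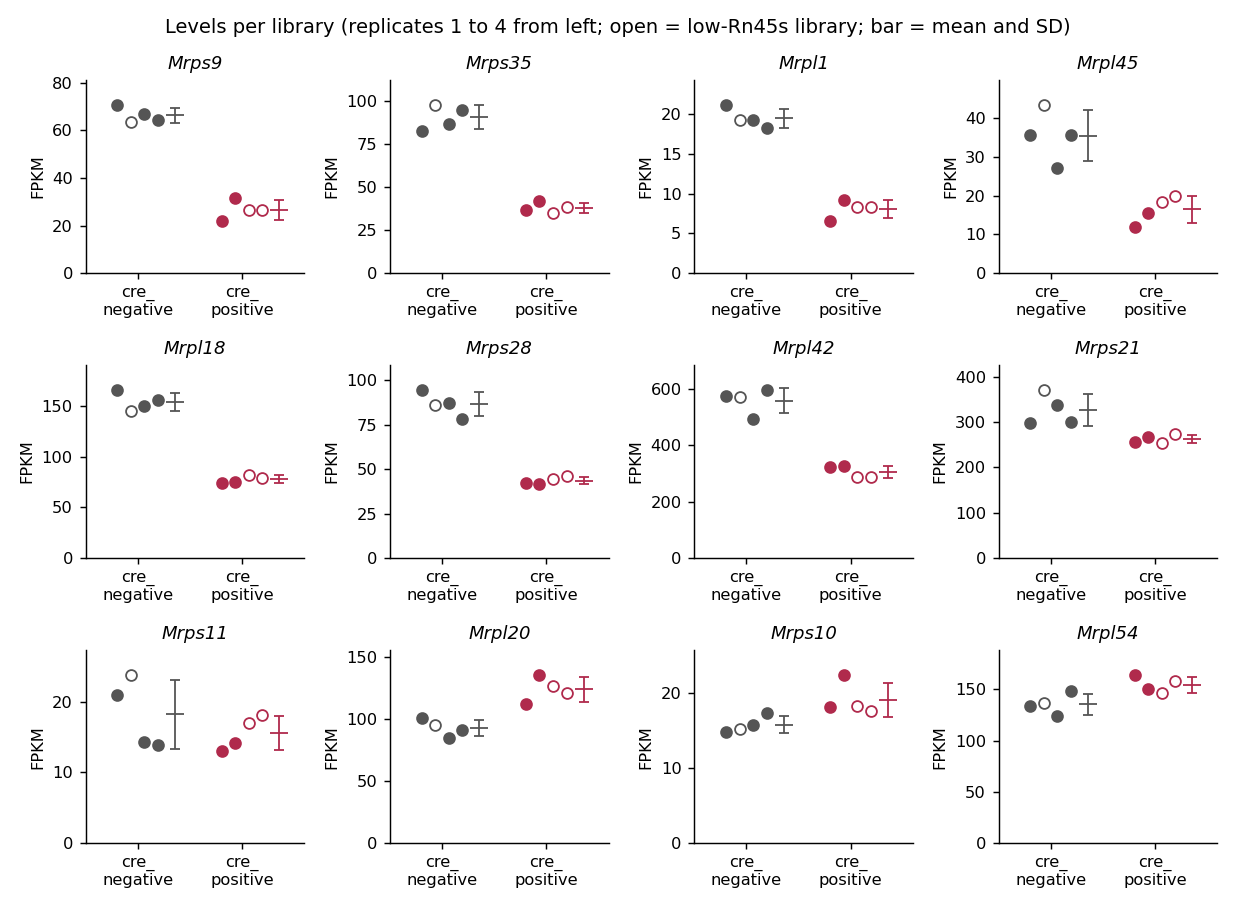
FPKM of 12 members in each library, replicates 1 to 4 from left to right, with mean and SD beside each group and open points for the low-Rn45s libraries; each axis starts at 0. Mrps9, Mrps35, Mrpl1, Mrpl45, Mrpl18 and Mrps28 show groups far apart downward, the groups of Mrps11 and Mrpl54 overlap, and Mrpl20 and Mrps10 are higher in all cre_positive libraries.

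Levels within the set spanned a wide range, from a cre_negative mean of 5.45 FPKM for Mrpl17 to 559 FPKM for Mrpl42, with a median of 50.7. The lowest value of any member in any library was 4.22 FPKM (Mrpl19 in cre_positive library 4), so no member was near the lowest value of the table. The proteins form one particle, but levels of the transcripts per length differed among them within each group. Mrpl42, a mitochondria-specific protein of the large subunit and the most abundant member, read 574, 570, 495 and 596 FPKM in the controls and 323, 327, 288 and 287 FPKM with Cre. It fell by 0.86 (SE 0.0862, adjusted p = 2.95e-05).

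The other members among the 6 most abundant over all 8 libraries had smaller log2 changes. That ranking pools the groups, and by control level alone Mrpl18, at 154 FPKM and a fall of 0.97, would be among them. Mrps21, a bacterial-type small subunit protein, had 298, 370, 338 and 300 FPKM in the controls and 256, 267, 254 and 272 FPKM with Cre. Its groups did not overlap but came close, and it fell by 0.31 (SE 0.0858, adjusted p = 0.0159). The call was lost under fixed-sum scaling, where its log2 change was -0.0045, and under quantile normalization (-0.056, adjusted p = 0.607). Mrps21 was called lower in 16 of the 20 other settings with calls. Mrpl30, of the large subunit, had 220, 301, 179 and 220 FPKM and 117, 150, 151 and 153 FPKM, with a wide spread of the controls, and fell by 0.67 (SE 0.150, adjusted p = 0.00553). Mrpl23, a bacterial-type protein at the tunnel exit, fell by 0.52 (SE 0.0703, adjusted p = 0.000233), from 150 ± 8.32 to 104 ± 4.11 FPKM (SD, n = 4). The remaining members of these 6, Mrpl33 (151 FPKM in the controls) and Mrpl54 (135 FPKM), were not called, with log2 changes of -0.12 and 0.19. Across the 77 genes, the log2 change had a Pearson r of 0.037 with mean log2 level and of -0.27 with log2 transcript length. These genes share the same 8 libraries and are not independent, so the values describe them only. Median transcript length was 1316 bases for the members and 3117.5 bases for the genes tested. With a length trend removed, the median log2 change was -0.43 for the members and -0.0061 for all genes tested.

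By name, 36 of 48 large subunit genes fell and 1 rose, with a median log2 change of -0.52 (from -1.18 to 0.41). Among small subunit genes 21 of 29 fell and none rose, with a median of -0.49 (from -1.30 to 0.25). After fixed-sum scaling 23 large subunit genes were called lower and 5 higher, and 11 small subunit genes lower and 3 higher. The shares of all genes tested were 19.4% lower and 19.7% higher as deposited, and 8.91% and 45.4% after that scaling. Some names do not match the particle. Mrps18a and Mrps30 are built into the large subunit, and Mrps36 is a subunit of the oxoglutarate dehydrogenase complex. Moved to their places, 37 of 50 large subunit genes fell and 1 rose (median -0.52), and 19 of 26 small subunit genes fell and none rose (median -0.48), with 24 lower and 5 higher, and 9 lower and 3 higher, after scaling. Mrps30 fell by 0.83 (adjusted p = 4.32e-05) and Mrps36 by 0.53 (adjusted p = 0.000534), while Mrps18a had a log2 change of -0.38 and was not called (adjusted p = 0.0863).

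Genes of both subunits were lower in each cre_positive library. Relative to the mean of the controls, the mean log2 level of the 48 Mrpl genes was 0.047, 0.15, -0.18 and -0.013 in cre_negative libraries 1 to 4 and -0.62, -0.44, -0.46 and -0.43 in cre_positive libraries 1 to 4. For the 29 Mrps genes it was 0.028, 0.12, -0.13 and -0.014 in the controls and -0.60, -0.48, -0.53 and -0.46 with Cre. Each cre_positive library was below each control for both subunits. The difference between the mean log2 levels of large and small subunit genes was 0.14 to 0.22 in the controls and 0.17 to 0.25 with Cre. These ranges overlap, so no change in the balance of the subunits was seen beyond the spread of the libraries. Genes of 1 subunit are not replicates and no p is given.

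**Figure D3:**
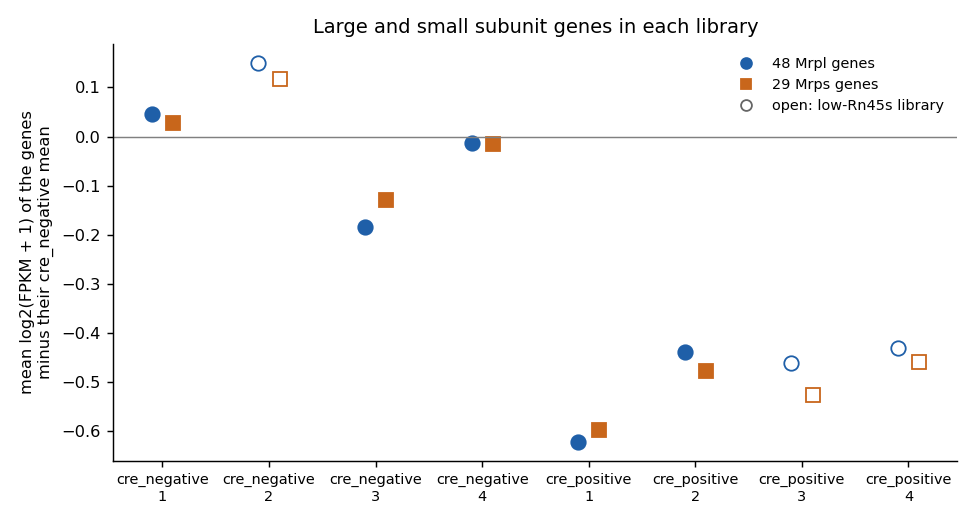
Mean log2(FPKM + 1) of the 48 Mrpl genes (circles) and the 29 Mrps genes (squares) in each library, minus the mean of the 4 cre_negative libraries; open points are low-Rn45s libraries. The cre_positive libraries sit between -0.62 and -0.43, the controls between -0.18 and 0.15, and the circle and square of a library lie close together.

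The spread among controls was itself shared by the members. Control library 2 held the highest control value for 44 members (57.1%) and control library 3 the lowest for 50 (64.9%), against 32.5% and 34.3% of all genes tested. Cre_positive library 1 held the lowest value of its group for 47 members (61.0%, against 37.3%). Summed over the 77 genes, FPKM was 4868 to 5982 in the controls and 3579 to 3949 with Cre. Within the low-Rn45s set, where control library 2 is the only control, the median log2 change of the members was -0.65, and 73 members were below 0. Within the high-Rn45s set it was -0.49, and 69 were below 0. Of the 77 members, 73 had the same direction in both sets, each of the 58 called members among them. The calls came from a fit over these same libraries, so that agreement is no separate check. A lower log2 change in the low-Rn45s set was seen in 56 of the 77.

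**Figure D4:**
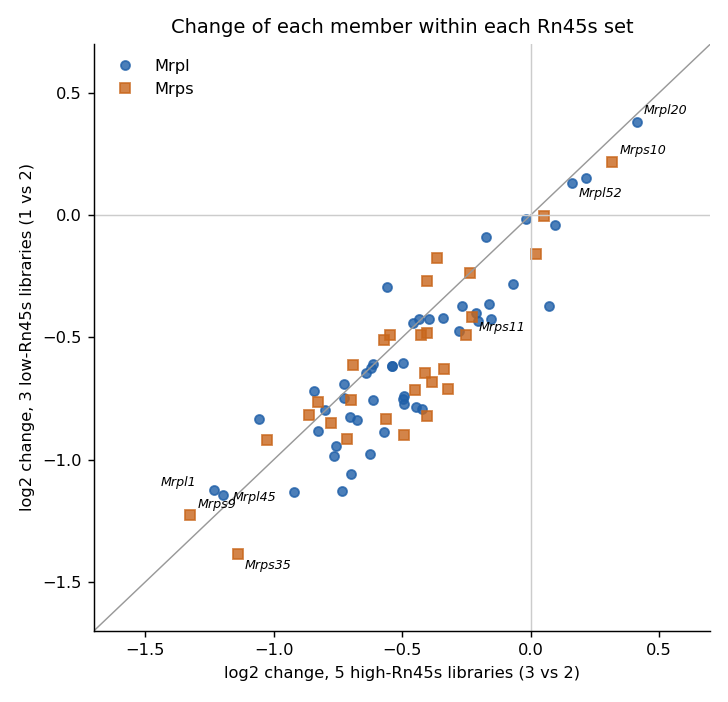
Log2 change of each member in the 5 high-Rn45s libraries (3 controls against 2 cre_positive, horizontal) and in the 3 low-Rn45s libraries (1 against 2, vertical), with the line of equal change. Of the 77 points, 73 have the same sign on both axes, and 56 lie below the line.

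Grouped by descent, members with a bacterial counterpart fell in 30 of 43 cases and rose in 1, with a median log2 change of -0.49. Members found only in mitochondrial ribosomes fell in 23 of 29 cases and none rose, with a median of -0.57. After fixed-sum scaling 15 were called lower and 4 higher in each class, with medians of -0.19 and -0.27. Beside these counts, 19.4% of all genes tested were called lower and 19.7% higher as deposited, and 8.91% and 45.4% after scaling. In both classes some members were not called, among them the bacterial-type Mrpl24 and Mrps6 and the mitochondria-specific Mrpl53 and Mrps34. The remaining 5 genes (Mrpl55, Mrps18a, Mrps28, Mrps30 and Mrps36) were put in neither class. The 3 paralogs of the Mrps18 family differed in call: Mrps18b fell by 0.41 (SE 0.0943, adjusted p = 0.00589), and the values were -0.17 for Mrps18c (adjusted p = 0.283) and -0.38 for Mrps18a, whose differences from Mrps18b were not tested. At the stalk base and stalk of the large subunit, where translation factors dock, Mrpl12 fell by 0.69 (adjusted p = 0.000581). Mrpl10 and Mrpl11 had log2 changes of -0.17 (adjusted p = 0.223) and -0.22 (adjusted p = 0.0526) and were not called. The groups of Mrpl10 overlapped, while those of Mrpl11 did not, and Mrpl11 was called lower in 5 of the 20 other settings with calls. Mrpl12 is also known as a partner of the mitochondrial RNA polymerase.

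Only 1 member called in this fit went against the rest. Mrpl20, a bacterial-type protein that binds ribosomal RNA in the large subunit, read 101, 95.1, 85.3 and 91.4 FPKM in the controls and 112, 136, 127 and 121 FPKM in the cre_positive libraries. Every cre_positive library was above every control, although library 1 was near the highest control. Mrpl20 rose by 0.41 on the log2 scale (SE 0.0834, adjusted p = 0.00311), from 93.3 ± 6.65 to 124 ± 9.79 FPKM (SD, n = 4). It was called higher in each of the 20 other settings that gave calls, leave-one-out fits among them.

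Mrps10, a bacterial-type protein of the small subunit head, came nearest to joining it. Its controls were 14.8, 15.3, 15.8 and 17.4 FPKM and its cre_positive values 18.1, 22.4, 18.2 and 17.6 FPKM. The groups did not overlap, but the lowest cre_positive library was close to the highest control, and the log2 change of 0.25 (SE 0.0928, adjusted p = 0.0524) was not called. Mrpl54, of the large subunit, had 133, 136, 124 and 148 FPKM and then 163, 150, 146 and 158 FPKM, with overlapping groups and a log2 change of 0.19 (adjusted p = 0.0782). Mrpl52, also of the large subunit, had 89.1, 98.7, 57.5 and 85.5 FPKM and then 71.3, 101, 104 and 113 FPKM. Its groups overlapped widely, and its log2 change of 0.24 came with an SE of 0.180 and an adjusted p of 0.327.

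Mrpl17, Mrpl57 and Mrps6 were the other members above 0, with log2 changes of 0.021, 0.038 and 0.049. Their 95% confidence intervals ran from -0.25 to 0.29, from -0.19 to 0.27 and from -0.12 to 0.22. Mrps34, a small subunit protein needed for the stability of that subunit, had a log2 change of -0.036 with an interval from -0.23 to 0.16, so a fall as large as the median of the members lay outside its interval. The same holds for Mrpl33, with an interval from -0.30 to 0.065, for Mrpl24, from -0.29 to 0.18, and for Mrpl53, from -0.41 to 0.33. Mrpl36, a small bacterial-type protein of the large subunit, had an interval from -0.61 to 0.30, wide enough to hold that median. In the GENCODE annotation, exons of Mrps6, Mrps34, Mrpl24, Mrpl53 and Mrpl36 overlap those of another coding gene. Whether shared fragments affected their values was not tested. Mrpl17, Mrpl33 and Mrpl57 have no such overlap. Mrpl17, Mrpl24, Mrpl33, Mrpl36, Mrpl53, Mrpl57, Mrps6 and Mrps34 changed sign under at least 1 other setting, and Mrps11 and Mrps18c did so under fixed-sum scaling.

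Several members lie close to another gene, head to head or with overlapping exons, and the sources used here do not say whether the counting used strand. In the GENCODE annotation, exons of 23 members overlapped those of another coding gene. The 54 members without such overlap held 42 that fell and 1 that rose, with a median log2 change of -0.52. The 23 with overlap held 15 that fell, with a median of -0.41. Of all genes tested, 19.4% were called lower and 19.7% higher. Within the overlapping pair Mrpl46 and Mrps11, which start head to head on chromosome 7, Mrpl46 fell by 0.81 (adjusted p = 5.70e-05). Mrps11 had 20.9, 23.7, 14.3 and 13.8 FPKM in the controls and 13.0, 14.2, 17.0 and 18.1 FPKM with Cre. Its groups overlapped, and its log2 change of -0.19 was not called (adjusted p = 0.429).

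A coding gene starting head to head within 1000 bases was annotated for 26 members, and for 22 of them that partner was tested (Mrpl46 and Mrps11 count once each). Of the 16 members in these pairs that fell, the partner was called lower in 2, higher in 1 and not called in 13. Over all 22 pairs the partner was called lower in 4 and higher in 1. Among all genes tested, 19.4% were called lower and 19.7% higher. Sars2, the mitochondrial seryl-tRNA synthetase, fell by 0.98 beside Mrps12, which fell by 0.52. Ptcd2 fell by 0.89 beside Mrps27, which fell by 0.78. Klc4, a kinesin light chain, rose by 0.39 (adjusted p = 0.00319) beside Mrpl2, which fell by 0.59 (adjusted p = 0.00364). In the opposite arrangement, Ndufs6, a complex I subunit, fell by 0.97 (adjusted p = 7.79e-06) beside Mrpl36, whose exons it overlaps and which was not called. Mrpl36 read 36.0, 48.1, 22.7 and 32.9 FPKM in the controls and 24.8, 26.9, 32.7 and 38.2 FPKM with Cre, so that its groups overlapped widely.

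Sequences before the starts of 5 of these genes are shown as a description only, and shared control of the members was not tested. RefSeq promoter windows of 300 bases (250 before and 50 after an annotated start, build GRCm38.p6) matched 68 of the 77 members. Both strands were searched for 5 short motifs: GCGCATGC, the core bound by NRF1, a known activator of nuclear mitochondrial genes; CCGGAAG, bound by ETS factors such as GABPA; AAGATGGCG, bound by YY1; TCAAGGTCA, bound by ERR receptors; and GGGCGG, bound by Sp1. The 250 bases before the start of 5 members are printed, 5′ to 3′ along the strand of the gene, with motif letters on either strand in capitals. The table's gene start equals the RefSeq start in these 5, which cover the largest fall (Mrps9), falls with an ETS or an NRF1 match (Mrpl18 and Mrpl9) and uncalled members with matches (Mrpl17 and Mrpl36).
Mrps9: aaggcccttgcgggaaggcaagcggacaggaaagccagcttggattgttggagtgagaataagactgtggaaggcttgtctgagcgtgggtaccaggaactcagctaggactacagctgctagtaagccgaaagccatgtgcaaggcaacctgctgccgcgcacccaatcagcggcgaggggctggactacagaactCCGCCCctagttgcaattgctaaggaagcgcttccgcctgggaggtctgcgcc
Mrpl18: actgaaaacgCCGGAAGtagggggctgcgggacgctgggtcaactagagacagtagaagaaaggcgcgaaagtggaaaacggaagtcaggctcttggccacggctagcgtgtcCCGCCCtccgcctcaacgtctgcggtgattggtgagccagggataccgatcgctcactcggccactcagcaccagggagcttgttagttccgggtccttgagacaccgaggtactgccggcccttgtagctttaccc
Mrpl9: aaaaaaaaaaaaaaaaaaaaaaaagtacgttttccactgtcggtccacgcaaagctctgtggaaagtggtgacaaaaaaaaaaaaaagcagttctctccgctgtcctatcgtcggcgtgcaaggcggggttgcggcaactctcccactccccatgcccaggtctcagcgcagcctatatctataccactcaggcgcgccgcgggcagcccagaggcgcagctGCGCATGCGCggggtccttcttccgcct
Mrpl17: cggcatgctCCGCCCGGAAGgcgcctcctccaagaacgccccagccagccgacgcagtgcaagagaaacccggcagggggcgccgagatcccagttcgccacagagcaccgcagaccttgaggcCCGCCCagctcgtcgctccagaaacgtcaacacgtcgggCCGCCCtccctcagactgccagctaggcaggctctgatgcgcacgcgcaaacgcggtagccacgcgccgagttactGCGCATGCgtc
Mrpl36: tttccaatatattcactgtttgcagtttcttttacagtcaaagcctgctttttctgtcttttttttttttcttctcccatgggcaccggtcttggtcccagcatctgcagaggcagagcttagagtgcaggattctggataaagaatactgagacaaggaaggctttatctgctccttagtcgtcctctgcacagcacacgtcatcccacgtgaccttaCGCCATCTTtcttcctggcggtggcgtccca
Mrps9 (chr1:42850983-42851232, plus strand) holds the Sp1 letters, Mrpl18 (chr17:12916092-12916341, minus strand) an ETS and an Sp1 match, and Mrpl9 (chr3:94443086-94443335, plus strand) an NRF1 match that reads the same on both strands. Mrpl17 (chr7:105811088-105811337, minus strand) holds NRF1, ETS and Sp1 matches, and the Sp1 and ETS letters overlap near its 5′ end. Mrpl36 (chr13:73330759-73331008, plus strand) holds a YY1 match on the opposite strand.

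The NRF1 letters were in 8 of the 68 member windows (11.8%), against 6.15% of the 8825 tested genes with a window and 3.05% of all 27025 genes with one. The ETS letters were in 25 (36.8%, against 20.5% and 9.93%) and the YY1 letters in 8 (11.8%, against 3.81% and 1.64%). The Sp1 letters were in 34 (50%, against 69.7% and 38.2%) and the ERR letters in none (0.329% and 0.466%). Matches stood in called and uncalled members: among the 50 members with a window that fell, 5 held NRF1, 17 ETS and 5 YY1 letters, and among the 17 not called, 3, 8 and 3 did. The windows of 6 members (Mrpl20, Mrpl48, Mrpl53, Mrps10, Mrps21 and Mrps23) all start over 100 bases from the gene start in the table. Among the 62 other members, counting only windows within 100 bases of it, a setting added after seeing the data, 8 held NRF1, 21 ETS (33.9%), 8 YY1 and 33 Sp1 letters (53.2%). The shares of all genes were not limited in this way. A match describes letters only, and binding was not measured.

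Other genes of mitochondrial translation were read in lists that share the 8 libraries with the members and were chosen with earlier results known. Counts are given as deposited, where most genes of the first 4 lists fell, and then after fixed-sum scaling, where fewer than that did. Over all genes tested, 19.4% were called lower and 19.7% higher as deposited, and 8.91% and 45.4% after that scaling. Of 6 mitoribosome proteins with other names, 5 fell and none rose (median log2 change -0.62), and 4 and 1 did after scaling (median -0.33). Among them, Ptcd3 fell by 1.17, from 101 to 44.6 FPKM on average, and Chchd1 fell by 0.64. Of 26 factors that build the mitoribosome or modify its RNA, 17 fell and 1 rose (median -0.42), and after scaling 8 were called lower and 2 higher (median -0.14). Rnmtl1, a methyltransferase of the mitochondrial ribosomal RNA, fell by 1.35 (adjusted p = 4.02e-05), and the GTP-binding protein gene Gtpbp6 rose by 0.56 (adjusted p = 0.00522). Of 15 translation factors and regulators, 12 fell and none rose (median -0.52), against 7 and none after scaling (median -0.23). Lrpprc, which stabilises mitochondrial messenger RNAs, went from 88.0 to 41.0 FPKM on average (log2 change -1.09), and Taco1, an activator of cytochrome oxidase translation, fell by 1.04.

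Among 17 mitochondrial tRNA synthetases 10 fell and 1 rose (median -0.49), and after scaling 6 were called lower and 2 higher (median -0.22). Ears2, the mitochondrial glutamyl-tRNA synthetase, went against the list by rising 1.62 on the log2 scale (adjusted p = 1.01e-06), from 2.94 to 11.0 FPKM on average. Of 11 genes of mitochondrial transcription and DNA upkeep, 8 fell and none rose (median -0.52), led by the helicase Peo1 (-0.97) and Mterf2 (-0.95), and after scaling 5 were called lower and 1 higher (median -0.31). Of 13 transcription factors and coactivators known to act on nuclear mitochondrial genes, 4 fell and none rose as deposited (median -0.15). After fixed-sum scaling 3 were called lower and 4 higher, with a median of 0.074. Under that scaling 8.91% of all genes were called lower and 45.4% higher, and their median was 0.25. Ppargc1b, a coactivator of ERR receptors, fell by 1.73 (adjusted p = 4.20e-06) and Ppara, a nuclear receptor of fatty acid oxidation, by 1.11 (adjusted p = 3.44e-05). As deposited, Nrf1, Gabpa and Yy1 had log2 changes of 0.065, -0.22 and -0.049 and were not called. Their motifs were among those searched above, and values of the ERR receptors and Sp1 are not given here.

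The members were set beside the most alike families. Of 77 tested respiratory chain subunits, 57 fell and 2 rose, with a median log2 change of -0.60. Cox7a1, the heart and muscle form of a cytochrome oxidase subunit, fell by 1.61, and Uqcrc1 of complex III by 1.17. Of 76 ribosomal proteins of the cytosolic ribosome, 3 fell and 2 rose, with a median of -0.067. Rpl3 rose by 0.93, and Rpl34, a low gene at 4.56 FPKM in the controls, rose by 0.66. After fixed-sum scaling the medians were -0.22 for the members, -0.29 for the respiratory chain and 0.24 for the cytosolic ribosomal proteins, of which 35 were then called higher, a share near the 45.4% of all genes called higher under that scaling. Genes named as cytosolic ribosomal proteins were left out of the sum used for that scaling. No test compared these lists.

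**Figure D5:**
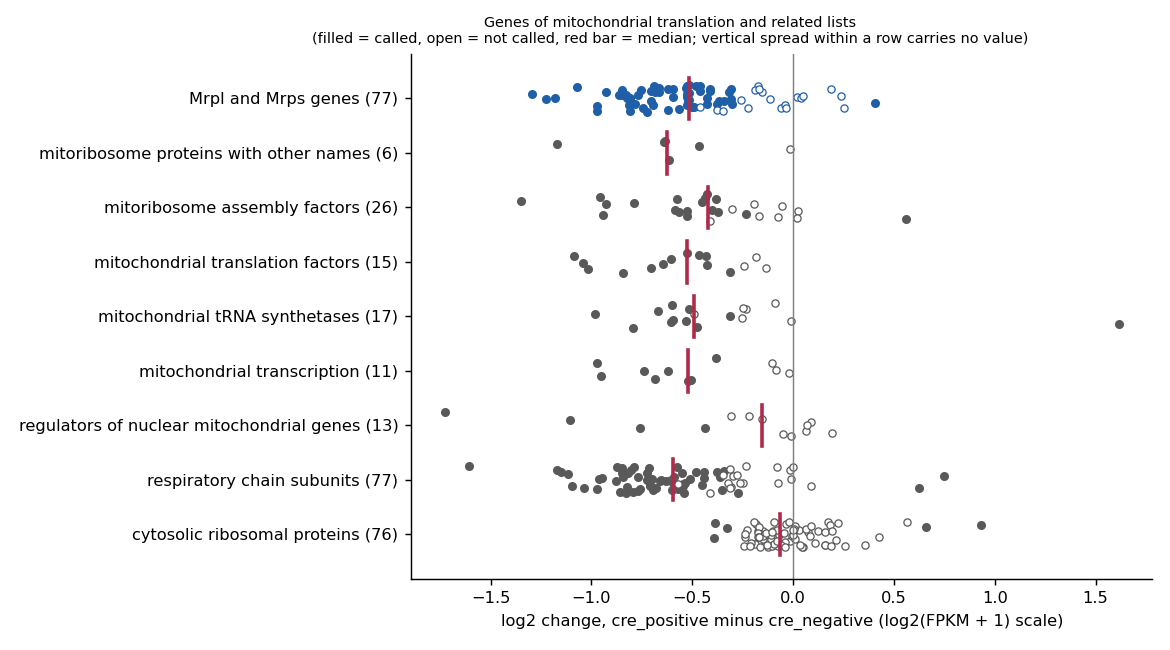
Log2 change (cre_positive minus cre_negative, log2(FPKM + 1) scale) of each gene in 9 lists, filled where called, with the median of each list as a red bar and the number of genes in brackets. The medians of the members (-0.52), the respiratory chain (-0.60) and the translation factors (-0.52) lie left of 0, and that of the cytosolic ribosomal proteins (-0.067) is near it.

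Markers of cell types moved with the groups, where 19.4% of all genes tested were called lower and 19.7% higher as deposited. Of 8 cardiomyocyte markers 7 fell and Actn2 was not called, and their summed level was 48012 to 51949 FPKM in the controls and 16752 to 17936 FPKM with Cre. Of 8 fibroblast markers 6 rose (summed 604 to 728, then 969 to 1124 FPKM), and of 8 smooth muscle and pericyte markers 4 rose and 1 fell (467 to 610, then 937 to 1386 FPKM). Of 8 macrophage markers 6 fell (272 to 339, then 168 to 240 FPKM; 3 after fixed-sum scaling), and of 8 endothelial markers 3 fell and 1 rose (392 to 449, then 325 to 383 FPKM). After that scaling 1 endothelial marker was called lower and 2 higher. The endothelial median log2 change went from -0.28 to 0.011, and that of all genes from -0.0070 to 0.25. The scaling also gave 8 fibroblast markers higher, 5 smooth muscle and pericyte markers higher and none lower, and 7 cardiomyocyte markers lower and 1 higher. Of all genes, 8.91% were then called lower and 45.4% higher. Among 4 atrial markers 1 rose, and none of the 5 tested red cell markers was called. Lymphocyte and adipocyte markers did not reach the level for testing (summed 0.638 to 3.45 and 0.0400 to 3.40 FPKM over all libraries), and the adipocyte marker Lep was at the lowest value of the table in every library. The part of these shifts in the levels of the mitochondrial ribosomal protein genes was not tested.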

How the data were processed

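Stranded total RNA libraries were made after ribosomal RNA depletion, per the labels' protocols. The deposited table gives 1 FPKM value per gene symbol and library. Cufflinks, Bowtie2 2.2.6 and mouse build mm10 are named in the submitters' processing notes. The sources used here do not give the aligner settings, the annotation, the use of strand or the filter the authors applied. A word stood in place of a number in 6 cells of 3 genes, which were treated as missing.

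Libraries were grouped by the genotype in their titles and compared with limma 3.58.1 in R 4.3.3 (lmFit, eBayes with trend) on log2(FPKM + 1), over the 11688 genes averaging 1 FPKM or more, with Benjamini-Hochberg adjustment over those genes. The pseudocount understates the change of low genes. The fit was also run on simulated data with independent noise for each gene. Those data lack the deviations that members shared within a library, so they do not show how the fit handles them. Depth was estimated from the FPKM of genes with a single transcript at 1 fragment, and covers counting error only. Libraries with Rn45s above and below 100 FPKM were treated as 2 sets found in the data. Coordinates are those of the table, with starts counted from 1.

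Alternatives were a pseudocount of 0.1, no filter or a mean of at least 5 FPKM, quantile, fixed-sum and median-ratio scaling, no variance trend, a replicate block, the Rn45s sets, removal of a length trend, and leaving out each library. Averaging cre_negative libraries 1 and 2 was added after seeing the data. The members and lists were chosen with earlier results of these data known. The rule for named genes takes Med13 and Med13l, the 6 called members with the largest fall and the 6 with the largest rise (1 existed), the 6 most abundant members, called members against the majority, Mrps18a, Mrps18b, Mrps18c, Mrps30 and Mrps36, and up to 2 genes per list. Other members were named after their values were seen.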

Additional observations from a re-analysis of the deposited data

Results flagged for a closer look

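Among 72 groups of 4 libraries examined, 3 held 1 library far from the others, where chance alone marks about 1 in 20 groups. Mrpl30 stood at 117 FPKM in cre_positive library 1 against 150 to 153 FPKM in the other cre_positive libraries. Mrps10 stood at 22.4 FPKM in cre_positive library 2 against 17.6 to 18.2 FPKM in the others, and Med13l at 6.13 FPKM in cre_negative library 3 against 4.38 to 4.62 FPKM in the other controls.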

How the results depend on the processing

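Of 714 values of the 34 named members under other settings, 647 kept their direction and side of the threshold, 20 lost the call, 15 gained one and 32 changed sign. The count of members called lower was 57 and stayed between 45 and 62 in all settings with calls but fixed-sum scaling, where it was 34 and the medians were -0.22 for all members, -0.23 for the large and -0.19 for the small subunit. In all 20 other settings with calls, 34 members were called lower. The number called higher was 8 under fixed-sum scaling, 4 with the length trend removed, 3 under quantile normalization, and 2 with a mean of at least 5 FPKM and with the Rn45s set as a term. Of all genes tested, 19.4% were called lower and 19.7% higher as deposited, and 8.91% and 45.4% under fixed-sum scaling. The shares of all genes under the other settings are not given here, so those counts cannot be set against other genes.

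Leaving out 1 library gave 50 to 61 lower and 1 to 2 higher, small subunit medians of -0.59 to -0.40 (without cre_negative library 3 and without library 2), and differences of the large from the small subunit median of -0.074 to -0.0060. That difference was -0.032 over all libraries, -0.091 in the high-Rn45s set and 0.011 in the low-Rn45s set, so its size and sign are not settled by these data. In the low-Rn45s set the medians were -0.65 for the members and -0.65 for the small subunit; that set has 1 control and gives no calls. Med13 had a log2 change of -0.22 (fixed sum) and -0.51 (high-Rn45s set) without a call. Averaging cre_negative libraries 1 and 2 gave 52 lower and 1 higher.

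Members near 0 changed sign. Under fixed-sum scaling the log2 changes were 0.24 for Mrpl24, 0.19 for Mrpl33, 0.14 for Mrpl36, 0.26 for Mrpl53, 0.10 for Mrps11, 0.13 for Mrps18c and 0.26 for Mrps34. Under quantile normalization they were -0.020 for Mrpl17 and 0.031 for Mrpl53, and with the length trend removed -0.0098 for Mrpl17, 0.023 for Mrpl33, 0.068 for Mrpl53 and 0.053 for Mrps34. In the high-Rn45s set they were -0.019 for Mrpl17, 0.070 for Mrpl24 and 0.021 for Mrps34, in the low-Rn45s set -0.014 for Mrpl17, -0.042 for Mrpl57 and -0.0031 for Mrps6, with the Rn45s term -0.017 for Mrpl17, and with the averaged controls 0.030 for Mrpl53. Leaving out 1 library gave ranges of -0.037 to 0.12 for Mrpl17, -0.14 to 0.035 for Mrpl24, -0.34 to 0.012 for Mrpl36, -0.18 to 0.095 for Mrpl53, -0.034 to 0.11 for Mrpl57 and -0.089 to 0.0017 for Mrps34. The causes were not tested.

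Deviations from the group means were compared between the groups. Libraries with the same number had correlations of -0.087, -0.16, -0.13 and -0.078, and those with different numbers -0.23 to 0.29. The numbers come from the sample titles alone, so these weak correlations cannot show whether libraries were paired. With a replicate block 57 members were called lower and 1 higher, with a median of -0.52.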
